A study of Homo sapiens with 12 samples.

Results

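The genes considered here encode enzymes that add acetyl groups to histones and enzymes that remove them. The acetyltransferases were EP300, CREBBP, KAT2A and KAT2B, and the deacetylases were HDAC1, HDAC2, SIRT6 and SIRT7. A region of a deposited list was assigned to a gene when it lay in the gene or within 20 kb of it on hg19. This gave 8 gene windows of 46 to 195 kb, 775 kb in all, which held 69 of the 169273 regions in the 6 lists. Of these, 57 were regions of H3K18ac, a histone H3 tail acetylated at a particular lysine, and 12 were regions of incorporated bromodeoxyuridine (BrdU), a thymidine analogue taken up by newly made DNA.

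The lists came from cultured cells, called lines here, with 1 library in each group. H3K18ac was immunoprecipitated with a custom antibody from untreated H1 embryonic stem cells and untreated IMR90 primary lung fibroblasts. BrdU-labelled DNA was pulled down from H1 cells with siRNAs against EP300 and CREBBP (H1 knockdown), from H1 cells with non-targeting siRNA (H1 control), and from IMR90 and Saos-2 osteosarcoma cells without siRNA. Both siRNA cultures also received HA 1077 at 10 µM and were collected 72 h after transfection, so the H1 BrdU libraries differ from the H1 H3K18ac library in treatment too. The lists held 65946 H3K18ac regions in H1 and 84471 in IMR90, against 1755, 5086, 5743 and 6272 BrdU regions in H1 knockdown, H1 control, IMR90 and Saos-2. No read counts were used, so depth is unknown, and a region missing from a list may have lain under the authors' threshold. In these bulk libraries, a mark in fewer cells and less of it per cell cannot be told apart. The cell type labels were not checked against marker genes, because no hg19 annotation was used here.

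Histone acetylation is written by acetyltransferases and erased by deacetylases, and the balance between them sets how much of the mark a promoter or enhancer carries. EP300 (p300) and CREBBP (CBP) are paralogous coactivators that acetylate H3K18 and H3K27 at enhancers and promoters. KAT2A (GCN5) and KAT2B (PCAF) are paralogues that acetylate H3K9 in larger coactivator complexes. HDAC1 and HDAC2 are zinc-dependent deacetylases and the catalytic subunits of the Sin3, NuRD and CoREST corepressor complexes. SIRT6 and SIRT7 are NAD-dependent deacetylases for which H3K18ac is a known substrate.

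**Figure D1:**
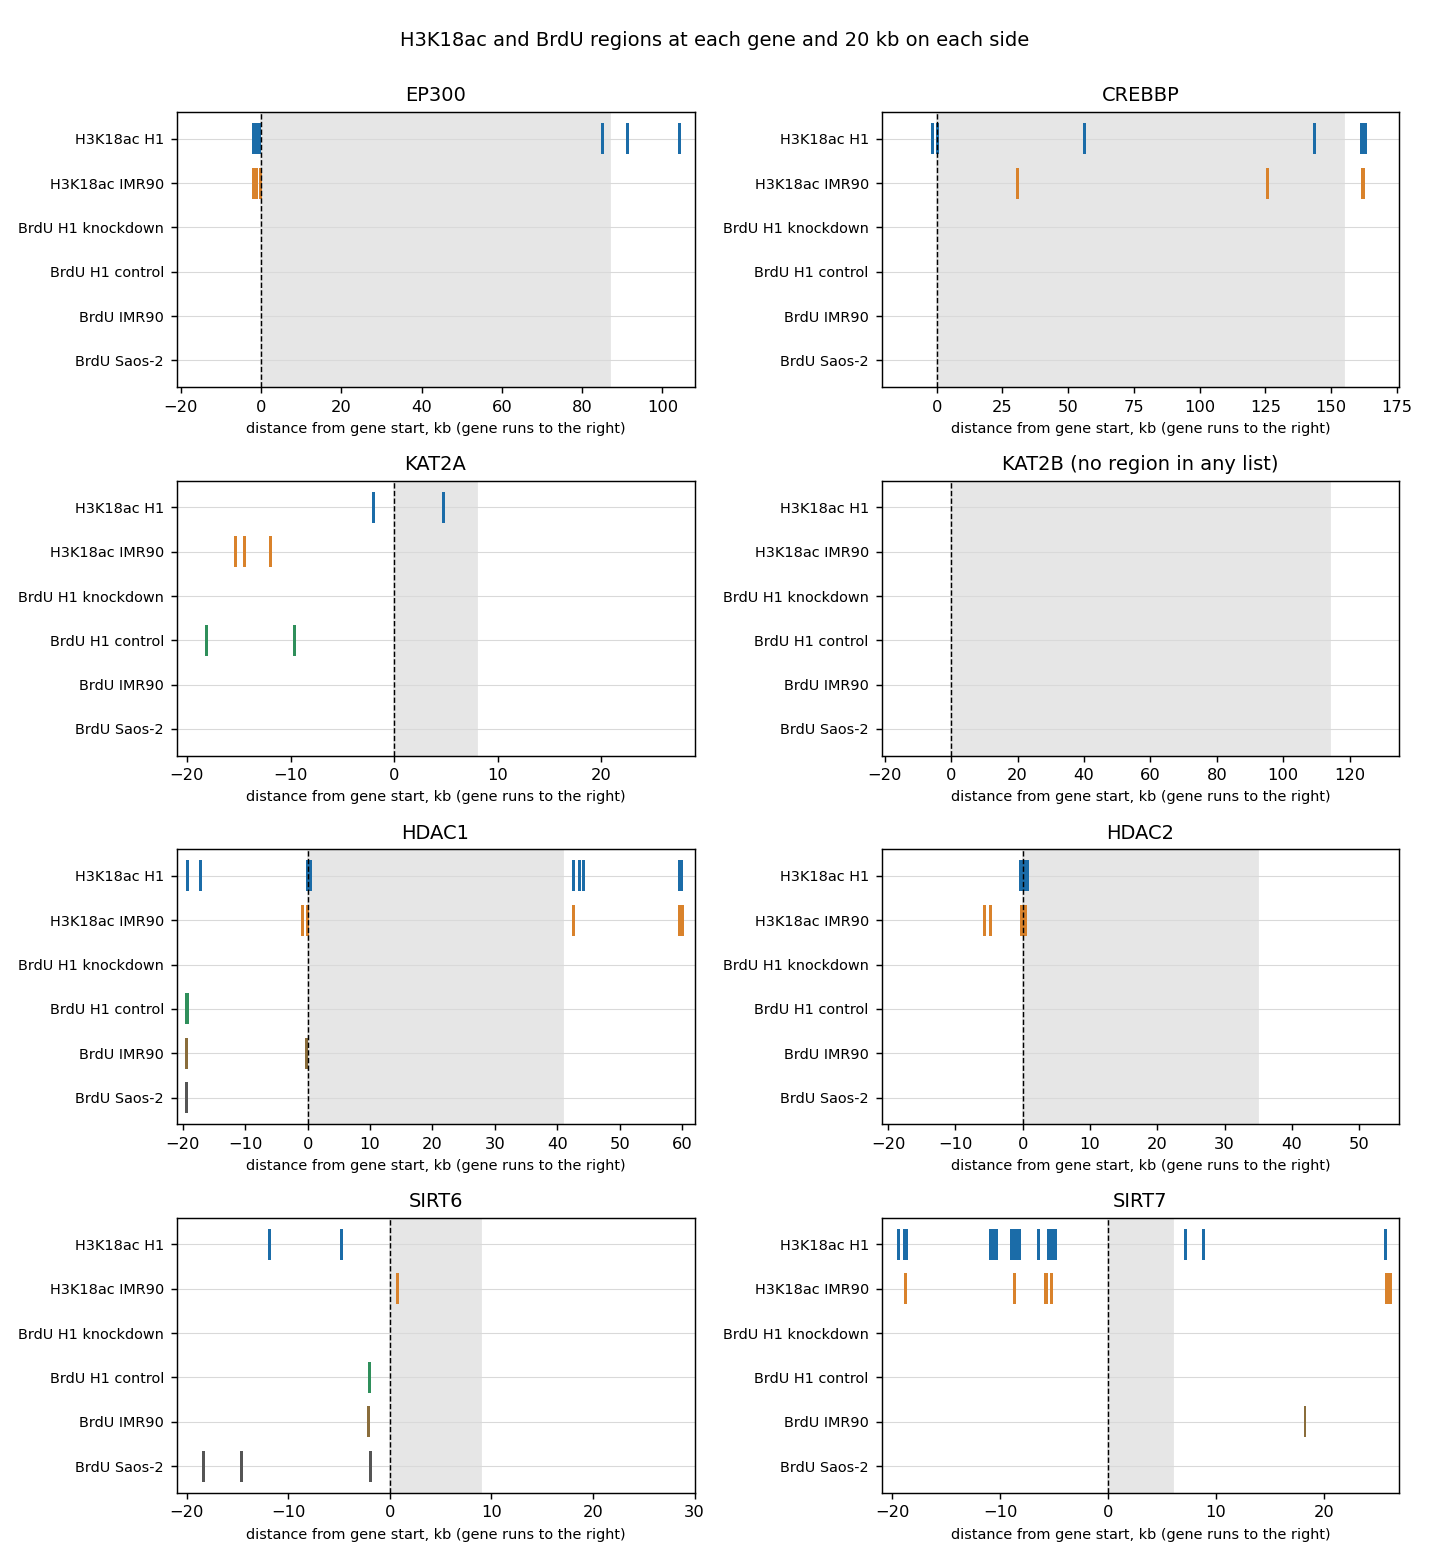
Regions of the 6 lists at each gene, by distance of the region midpoint from the gene start in kb, with the gene shaded and 20 kb shown on each side. Bars are regions, and short ones are drawn wider than they are so that they can be seen. KAT2B has no region in any list, and the H1 knockdown row is empty at all 8 genes.

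H3K18ac lay at the start of some of these genes in each line. A region within 2 kb of the gene start was present at 5 of 8 genes in H1 (EP300, CREBBP, KAT2A, HDAC1 and HDAC2) and at 4 of 8 genes in IMR90 (EP300, HDAC1, HDAC2 and SIRT6). Of all 4 kb tiles of the genome, with or without a gene start, 7.66% held a region in H1 and 7.52% in IMR90, and the share over all gene starts was not analysed here. The gene limits were known to the nearest 1 kb, so each distance from a start carries a rounding error of up to 0.5 kb. CREBBP and SIRT6 had 2 promoter entries each, and only the gene limit served as the start. EP300, HDAC1 and HDAC2 had the mark at the start in both lines, CREBBP and KAT2A in H1 alone, SIRT6 in IMR90 alone, and KAT2B and SIRT7 in neither. KAT2A was the borderline case, with its region 1.9 kb upstream of the start, and it dropped out at 1 kb, which left 4 genes in each line. At 5 kb the number was 7 in H1, with SIRT6 and SIRT7 added, and 4 in IMR90. These cases were borderline too. The H1 regions at SIRT6 and SIRT7 lay 4.7 kb from the start and the IMR90 region at SIRT7 5.2 kb. All 3 distances differ from 5 kb by less than the rounding error.

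**Figure D2:**
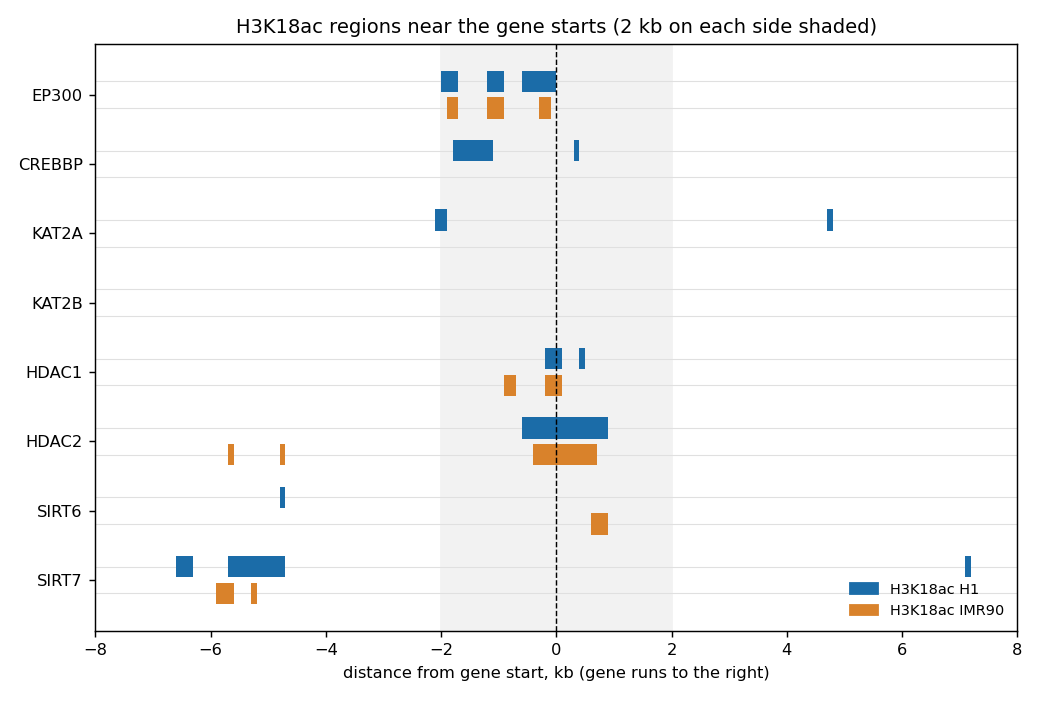
H3K18ac regions within 8 kb of each gene start, drawn to scale, H1 above IMR90 for each gene. At HDAC2 a region of 1500 bp in H1 and one of 1100 bp in IMR90 span the start, while CREBBP has regions in H1 alone and KAT2B in neither line.

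The promoters of 3 genes that differed in this respect are shown, from RefSeq on GRCh38.p14, 5′ to 3′, as the 250 bases before the gene start. HDAC1 had H3K18ac at its start in both lines, CREBBP in H1 alone and KAT2B in neither. Capitals mark the GC box GGGCGG, the binding motif of Sp1-family factors, or CCAAT, the motif bound by NF-Y, on either strand, where matches may overlap.
HDAC1: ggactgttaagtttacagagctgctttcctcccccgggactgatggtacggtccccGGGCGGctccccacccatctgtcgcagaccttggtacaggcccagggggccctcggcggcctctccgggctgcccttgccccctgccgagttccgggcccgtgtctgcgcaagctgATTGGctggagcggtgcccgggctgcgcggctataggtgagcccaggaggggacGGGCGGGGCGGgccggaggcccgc
CREBBP: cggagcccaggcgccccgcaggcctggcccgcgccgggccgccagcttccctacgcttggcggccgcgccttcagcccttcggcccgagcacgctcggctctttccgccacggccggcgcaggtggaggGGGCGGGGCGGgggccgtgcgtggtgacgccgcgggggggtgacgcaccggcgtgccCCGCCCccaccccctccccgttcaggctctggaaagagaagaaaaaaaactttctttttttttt
KAT2B: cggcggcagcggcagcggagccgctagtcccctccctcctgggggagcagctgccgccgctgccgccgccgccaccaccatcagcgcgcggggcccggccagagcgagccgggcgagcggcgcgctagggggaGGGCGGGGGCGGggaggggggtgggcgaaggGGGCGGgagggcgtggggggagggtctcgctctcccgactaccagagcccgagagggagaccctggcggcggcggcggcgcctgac
These lie at chr1:32291833-32292082 (plus strand), chr16:3880714-3880963 (minus strand, the more upstream of 2 entries) and chr3:20040196-20040445 (plus strand), all in GRCh38.p14 and not convertible here to the hg19 positions of the regions. All 3 held 3 GC boxes, and HDAC1 also held 1 CCAAT. EP300 and HDAC2, with the mark at the start in both lines like HDAC1, held 0 GC boxes. KAT2A (H1 alone) held 0 and SIRT6 (IMR90 alone) held 4. Their GC content was 71.6% in HDAC1, 72.4% in CREBBP and 80.8% in KAT2B, with 21, 31 and 33 CpG dinucleotides. So KAT2B, without a region in any list, had the promoter with the highest GC content of the set. Over the 7 genes with an entry (SIRT7 had none), GC content ran from 58.8% in KAT2A to 80.8%, against a median of 58% over 35114 promoters. The GC box was present in 4 of the 7 and in 42.6% of all promoters, and CCAAT in 2 of the 7 and in 32% of all. The cAMP response element TGACGTCA, the E-box CACGTG and the TATA box TATAAA were found in 0 of the 7, and in 1.65%, 6.35% and 10.7% of all promoters.

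EP300, one of the targets of the siRNAs, lies on chromosome 22 between RBX1 and L3MBTL2 in the gene order of GRCh38. Its start carried the same group of 3 short regions in both lines. In H1 they lay at chr22:41487001-41487300, chr22:41487801-41488100 and chr22:41488401-41489000, and in IMR90 at chr22:41487101-41487300, chr22:41487801-41488100 and chr22:41488701-41488900. Each IMR90 region lay entirely within an H1 region, and the middle ones had identical limits. The authors' score of the middle region, the highest at EP300 in each line, reached percentile 93.9 of the H1 list and percentile 63.2 of the IMR90 list. Scores were ranked only within their own list. H1 had 3 further regions, at the end of the gene and downstream on the side of L3MBTL2, of which the longest was chr22:41580101-41580600. IMR90 had none there. The EP300 window was thus covered over 2000 bp in H1 and 700 bp in IMR90, a ratio of 2.86.

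CREBBP, the other siRNA target, lies on chromosome 16 between TRAP1 and ADCY9. It had 7 regions over 2100 bp in H1 and 3 regions over 300 bp in IMR90, a ratio of 7, the largest of the 7 genes with the mark in both lines. In H1 a region of 700 bp at chr16:3931101-3931800 lay 1.1 kb upstream of the start (percentile 92.7), and a single 100 bp window at chr16:3929601-3929700 lay just inside the gene. In IMR90 the region nearest the start was 30.7 kb into the gene, at chr16:3899201-3899300, and ranked at percentile 3.5 of its list. The highest score at CREBBP was downstream in both lines, on the side of TRAP1. There H1 had chr16:3767601-3768000 (percentile 93.8), and IMR90 a single window inside it at chr16:3767801-3767900 (percentile 16.3), the only place at CREBBP where the lines overlapped.

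KAT2A, the GCN5 acetyltransferase, lies on chromosome 17 between DHX58 and HSPB9, and its H3K18ac regions fell in different places in the 2 lines. H1 had a region of 200 bp at chr17:40274901-40275100, 1.9 kb upstream of the start, and a single window inside the gene at chr17:40268201-40268300. IMR90 had 3 regions 11.9 to 15.2 kb upstream, the strongest at chr17:40287301-40287600. None overlapped between the lines, and the covered length was 300 bp in H1 and 600 bp in IMR90.

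KAT2B, the PCAF acetyltransferase, was the only gene of the 8 with no region of either mark. Its 154 kb window on chromosome 3 was empty in all 6 lists. The nearest H3K18ac region lay 31.3 kb beyond the end of the gene in H1, at chr3:20227301-20227600, and 31.0 kb beyond it in IMR90, at chr3:20227001-20227600, on the side of SGO1. The nearest BrdU regions were 3290 kb away in H1 knockdown, 1910 kb in H1 control, 3440 kb in IMR90 and 3300 kb in Saos-2. Of 18623 tiles of 150 kb, 16.4% likewise held no H3K18ac region of either line.

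HDAC1 lies on chromosome 1 between LCK and MARCKSL1 and had 8 regions over 2800 bp in H1 and 4 regions over 1500 bp in IMR90. A region with the same limits in both lines, chr1:32757801-32758100, spanned the start, at percentile 87.2 in H1 and 53.7 in IMR90. The highest score in either line was downstream on the side of MARCKSL1, at chr1:32817401-32818200 in H1 (percentile 91.6) and chr1:32817401-32818300 in IMR90 (percentile 87.8). H1 alone had regions about 17 to 19 kb upstream, at chr1:32740701-32741100 and chr1:32738501-32739000.

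HDAC2, the paralogue of HDAC1 on chromosome 6, carried the longest H3K18ac region of the 8 windows in both lines, which was also the highest-scoring region at any of the gene starts. In H1 it was the only region in the window, 1500 bp at chr6:114291101-114292600, with a score at percentile 99.4. In IMR90 it measured 1100 bp at chr6:114291301-114292400, entirely inside the H1 region, at percentile 85.9. IMR90 had 2 further single windows 4.7 and 5.6 kb upstream. The covered length was 1500 bp in H1 and 1300 bp in IMR90, the most even of the genes that carried the mark, with a ratio of 1.15.

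SIRT6, on chromosome 19 between CREB3L3 and ANKRD24, had little H3K18ac in either line, 200 bp in H1 and 300 bp in IMR90. The H1 regions were single windows 4.7 and 11.8 kb upstream, at percentiles 26.3 and 21.7. The IMR90 region, chr19:4182101-4182400, lay inside the gene near its start and at percentile 50. No region overlapped between the lines.

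SIRT7, on chromosome 17 between NPB and MAFG, had the largest number of H3K18ac regions of the 8 windows in both lines, with 9 regions over 4100 bp in H1 and 5 regions over 1600 bp in IMR90. None lay in the gene itself. The nearest to the start were 4.7 kb upstream in H1, at chr17:79880701-79881700, and 5.2 kb upstream in IMR90, at chr17:79881201-79881300, both on the side of MAFG. The highest score in H1 was at chr17:79884101-79885100 (percentile 96.3), and an IMR90 region at chr17:79884501-79884800 lay within it. The highest score in IMR90 was on the opposite side, at chr17:79849701-79850300 (percentile 72.8). The strand of SIRT7, minus, was taken as background knowledge.

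**Figure D3:**
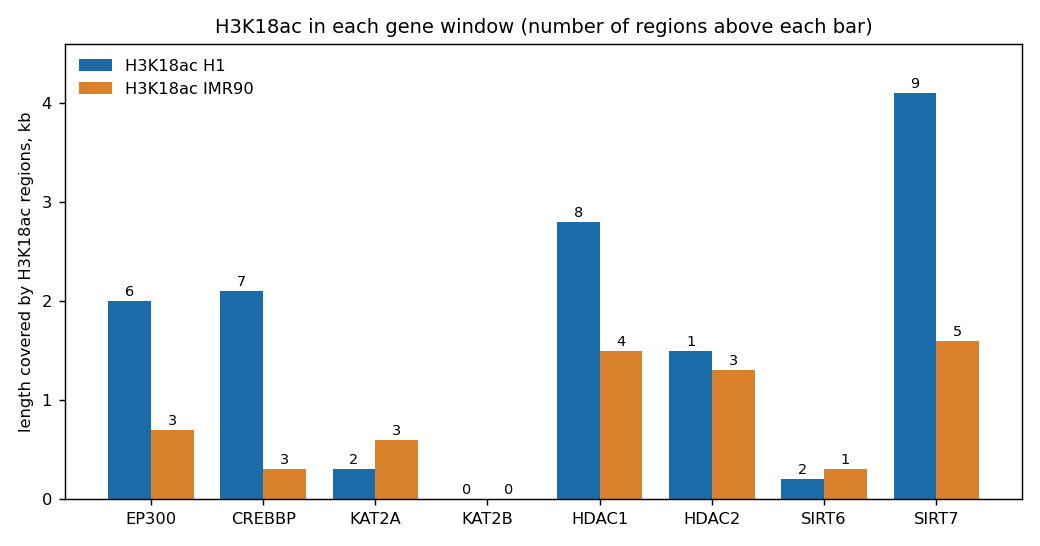
Length covered by H3K18ac regions in each gene window in kb, H1 left of IMR90, with the number of regions above each bar (1 library per line, no error bars possible). H1 covers more at EP300, CREBBP, HDAC1, HDAC2 and SIRT7, and IMR90 covers more at KAT2A and SIRT6.

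Over all 8 windows, H3K18ac covered 13 kb in H1, with 35 regions, and 6.3 kb in IMR90, with 22 regions. The ratio of covered length was 2.06, whereas over the whole lists it was 0.399, with 15.7 Mb in H1 and 39.5 Mb in IMR90. With 1 library per line there is no spread between replicates to set this against, and no test was made. These lengths are of the windows, and many of the regions lay in the flanks. In H1, 9 regions lay within 2 kb of a gene start, 4 elsewhere in a gene, 10 upstream and 12 downstream. In IMR90 these numbers were 7, 2, 9 and 4. H1 covered more than IMR90 in the windows of 5 of the 7 genes with the mark in both lines. IMR90 covered more at KAT2A and SIRT6. Among 10739 tiles of 100 kb with the mark in both lines, H1 covered more in 33%. H1 covered at least 2 times as much at EP300, CREBBP and SIRT7, which is 3 of the 7, and in 20.8% of those tiles. The median log2 ratio of H1 over IMR90 was 0.90 over the 7 genes and -0.89 over the tiles. The tiles include stretches without genes, and whether other gene windows differ from them in the same way was not tested. The ratio was 1.22 with 50 kb on each side of the genes and 1.58 in the genes alone. The latter counted regions that reached a gene limit at their whole length. It thus took in the 600 bp H1 region that only touched the EP300 limit. The IMR90 region there fell short of that limit by 99 bp and was left out. Without that H1 region the ratio in the genes alone would be lower.

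**Figure D4:**
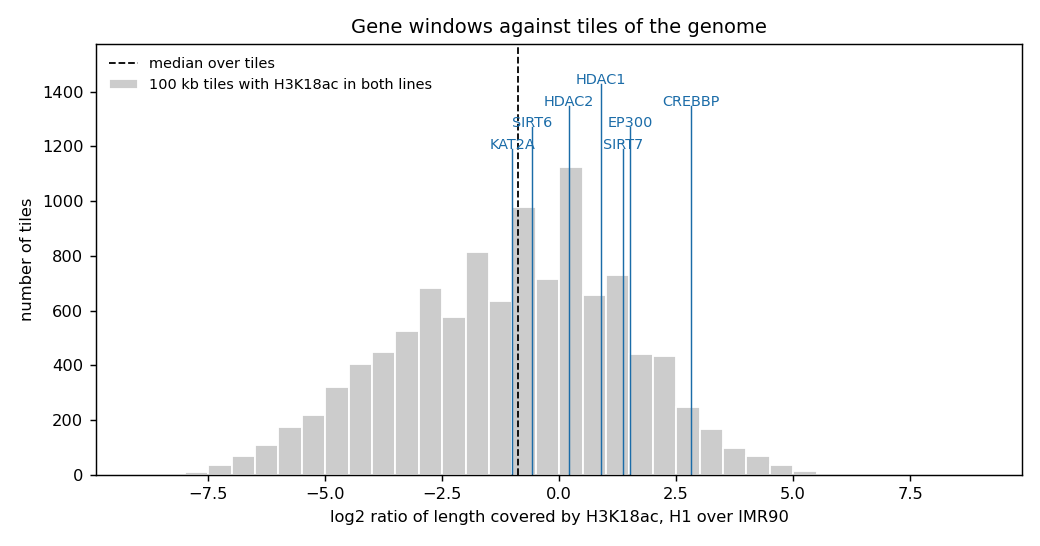
Distribution over 100 kb tiles of the log2 ratio of length covered by H3K18ac, H1 over IMR90, for the 10739 tiles with the mark in both lines, with the 7 gene windows that have it in both as labelled lines. The genes run from KAT2A, next to the dashed line, to CREBBP at 2.81, and that line is the tile median at -0.89.

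The density of H1 regions in the windows was 4.52 per 100 kb, which was 1.91 times the density of the whole list (Wilson 95% interval 1.38 to 2.66, for counting error of regions only). For IMR90 it was 2.84 per 100 kb, or 0.939 times that of its list (0.62 to 1.42). Both intervals are too narrow, because neighbouring regions are not independent. SIRT7 alone held 9 of the 35 H1 regions, and with regions within 1 kb merged there were 26 in H1 and 16 in IMR90. The median over genes was 4.12 regions per 100 kb in H1 and 3.18 in IMR90, against a median of 1 region per 100 kb tile in each list. At least 1 region was present at 7 of 8 genes in H1, against 63.8% of 100 kb tiles, and at 7 of 8 genes in IMR90, against 50.6%. Pooled, the deacetylase windows held 7.97 regions per 100 kb in H1 and 5.18 in IMR90, and the acetyltransferase windows 2.86 in H1 and 1.72 in IMR90, but the genes of the groups overlapped. In H1, SIRT7 (19.6 per 100 kb) and HDAC1 (9.88) were the densest, whereas SIRT6 (4.08) was close to EP300 (4.72), KAT2A (4.17) and CREBBP (3.59), HDAC2 (1.33) lay below them, and KAT2B was empty. Without SIRT7 the deacetylase windows held 5.37 per 100 kb in H1 and 3.9 in IMR90, and without KAT2B the acetyltransferase windows held 4.05 in H1 and 2.43 in IMR90. The acetyltransferase windows summed to 524 kb, of which CREBBP and KAT2B took the most, and the deacetylase windows to 251 kb. The flanks were 20 kb at every gene, so they made up more of the shorter deacetylase windows. In H1, regions reaching into the gene numbered 2 at HDAC1, 1 at HDAC2 and 0 at SIRT6 and SIRT7. They numbered 1 at EP300, 3 at CREBBP, 1 at KAT2A and 0 at KAT2B. Whether the groups differ apart from the flanks was not tested.

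The regions of the lines were shared in part. Of the 35 H1 regions, 12 overlapped an IMR90 region (34.3%, Wilson 95% interval 20.8 to 50.8), against 19% of the whole H1 list. Of the 22 IMR90 regions, 13 overlapped an H1 region (59.1%, 38.7 to 76.7), against 14.5% of the whole IMR90 list. The whole lists include regions away from genes, and whether other gene windows have similar shares was not tested. This IMR90 share was 38.8% (19 of 49) with 50 kb on each side of the genes, 40% (2 of 5) in the genes alone and 50% (11 of 22) when 50% of the region had to overlap. Neighbouring regions are not independent, so these intervals are too narrow. At the gene starts, 5 of the 9 H1 regions and 5 of the 7 IMR90 regions were shared, and elsewhere 7 of the 26 H1 regions and 8 of the 15 IMR90 regions. An overlap of 1 bp is met more easily by a long region, so the lengths that follow are a description. In H1 the median length was 500 bp for the 12 shared regions and 100 bp for the 23 others, and in IMR90 it was 300 bp for the 13 shared regions and 100 bp for the 9 others. Over the whole lists the same medians were 300 and 100 bp in H1 and 400 and 300 bp in IMR90. Longer regions in the windows often had higher scores, with exceptions, and the relation of score to length was not tested. The median score percentile was 90.8 for shared regions and 46.7 for the others in H1, and 57.3 and 19 in IMR90.

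**Figure D5:**
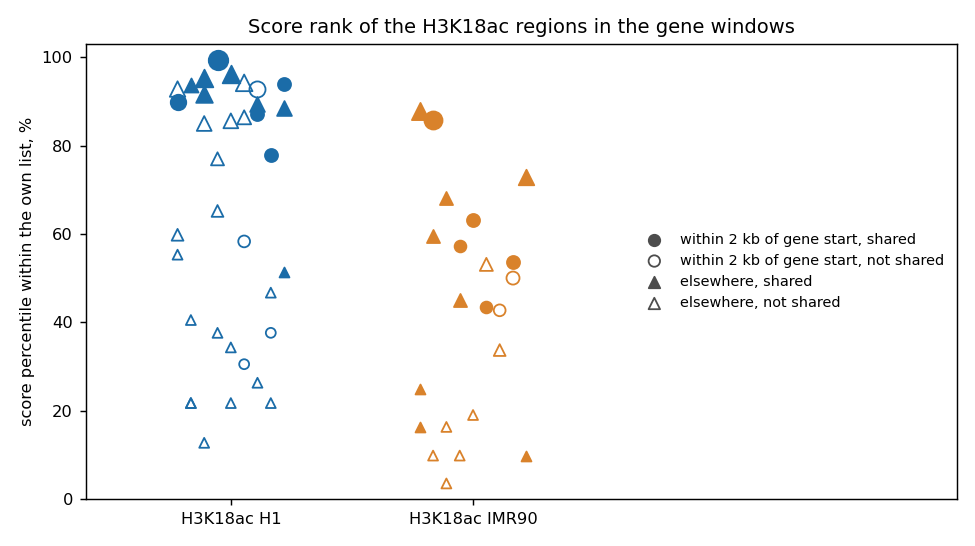
Score percentile of each H3K18ac region in the gene windows within its own list, H1 left and IMR90 right, with larger symbols for longer regions. Filled symbols overlap a region of the other line, and circles lie within 2 kb of a gene start; in H1 the shared regions start at percentile 51.3.

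BrdU regions were few at these genes, and none lay within the gene limits as given. The closest, an IMR90 window at HDAC1, lay outside them by less than the rounding of those limits. H1 knockdown had 0 regions in the windows, and H1 control, IMR90 and Saos-2 had 4 each. They fell at KAT2A, HDAC1, SIRT6 and SIRT7, and the windows of EP300, CREBBP, KAT2B and HDAC2 were empty in all 4 BrdU lists. By list, a region was present at 0 of 8 genes in H1 knockdown, 3 in H1 control, 3 in IMR90 and 2 in Saos-2, and in 5.76%, 13.6%, 13.2% and 14.3% of 100 kb tiles. A region of any BrdU list was present at 4 of 8 genes, against 29% of 100 kb tiles and 17.8% of the 50 kb tiles that come nearer to the short windows of KAT2A, SIRT6 and SIRT7. At the density of its whole list, H1 knockdown would place 0.487 regions in 775 kb, and H1 control 1.41, IMR90 1.59 and Saos-2 1.74. The observed 4 in H1 control were 2.83 times the density of the list (Wilson 95% interval 1.1 to 7.28), those in IMR90 2.51 times (0.976 to 6.45) and those in Saos-2 2.3 times (0.894 to 5.91). Of the 4 in H1 control, 2 lay in the KAT2A window, and neighbouring regions are not independent, so these intervals are too narrow. Loci at HDAC1 and SIRT6 recurred in each of these lists, so the ratios are not separate from each other.

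The strongest BrdU locus of the set lay upstream of HDAC1, on the side of LCK, and was found in all 3 cell lines without the knockdown. It measured 700 bp in H1 control at chr1:32738301-32739000 with a score of 1524 (percentile 96.7), 200 bp in IMR90 at chr1:32738501-32738700 (percentile 86.8) and 600 bp in Saos-2 at chr1:32738301-32738900 (percentile 92.7). It lay 19.0 to 19.3 kb from the HDAC1 start, so just within the 20 kb limit. The same place carried H3K18ac in H1, at chr1:32738501-32739000, which overlapped the control region over 500 bp, and none in IMR90, where the nearest H3K18ac region was 5.1 kb away. IMR90 also had a BrdU window of 100 bp at the HDAC1 start, chr1:32757801-32757900, inside the H3K18ac region that both lines had there.

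SIRT6 had a BrdU locus of all 3 lines upstream of its start. H1 control had 200 bp at chr19:4184901-4185100 (percentile 76.9), IMR90 200 bp at chr19:4185001-4185200 (percentile 78.5) and Saos-2 a single window at chr19:4184901-4185000 (percentile 16.3). The control region overlapped each of the others by 100 bp, while the Saos-2 window ended where the IMR90 region began. No H3K18ac region of either line overlapped it, the nearest being 2.5 to 2.7 kb away. Saos-2 had 2 further single windows upstream, at chr19:4197601-4197700 and chr19:4201301-4201400.

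The remaining BrdU regions were found in 1 line each. KAT2A had 2 in H1 control, chr17:40282501-40282700 and chr17:40291101-40291200, at percentiles 51.4 and 32.2, and SIRT7 had 1 in IMR90, chr17:79857701-79857800, at percentile 23.7. None of these overlapped H3K18ac in H1 or IMR90. Of the 4 H1 control regions in the windows, 2 thus overlapped IMR90 and the same 2 overlapped Saos-2, against 20.5% and 34% of the whole control list.

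The comparison of H1 knockdown with H1 control addressed BrdU incorporation at these genes after the joint knockdown of EP300 and CREBBP. Of the 4 control regions, 0 overlapped a knockdown region, against 3.07% of the whole control list. The nearest knockdown region was 43.1 kb from the control region at SIRT6, 122 kb from that at HDAC1, and 400 and 409 kb from those at KAT2A. The knockdown list was short throughout, with 1755 regions against 5086, and at its overall density these windows would hold fewer than 1 region. An effect of the knockdown on these genes could therefore not be told apart from the sparseness of the list. At the siRNA targets themselves there was no BrdU region to compare: the nearest to EP300 was 131 kb away in H1 knockdown and 77.1 kb in H1 control, and the nearest to CREBBP was 2420 kb away in H1 knockdown and 173 kb in H1 control. The siRNAs act on the transcripts and not on the gene, and the level of either transcript was not analysed here.

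Set against H3K18ac of the same line, 1 of the 4 H1 control regions overlapped the mark, against 8.75% of the whole list, and 1 of the 4 IMR90 regions did, against 2.44%. Both were at HDAC1, 19 kb upstream in H1 and at the gene start in IMR90. Within 10 kb, 3 of the 4 control regions and 4 of the 4 IMR90 regions had an H3K18ac region of their line, against 62.9% and 30.5% of the whole lists. Beyond the 20 kb limit, the nearest further BrdU regions were at SIRT6 in H1 knockdown (45.2 kb), HDAC2 in H1 control (47.3 kb), SIRT6 in IMR90 (28.7 kb) and SIRT6 in Saos-2 (44.9 kb). For H3K18ac the regions closest to the limit were at SIRT7 in H1, 19.7 kb inside and 21.1 kb outside, and in IMR90 at SIRT7, 19.7 kb inside, and at KAT2A, 20.9 kb outside.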

How the data were processed

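H3K18ac immunoprecipitations and BrdU pull-downs had 1 deposited region list per library, and the 6 input samples were not analysed here. Alignment with Bowtie 0.12.7 to hg19 is named in the submitters' processing notes. How regions were called, at which threshold, and how duplicates and inputs were treated is not given in the sources used here. Region limits fall on 100 bp steps, counted from 1 with both ends included. The score per region was deposited by the authors without a stated meaning, and served here to rank the regions of a list among themselves, as the percentile of regions with a score at or below it. Depth is unknown.

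Gene limits came from the list of genes, to the nearest 1 kb. Strands came from the RefSeq promoter table (GRCh38.p14), except that of SIRT7. Overlap meant at least 1 bp. Whole-list density was taken over 5587 bins of 500 kb that held a region of any list (2794 Mb), and backgrounds over tiles of 4, 50, 100 and 150 kb in them. Python 3.11.15, numpy 2.4.6, pandas 2.3.3, scipy 1.17.1 and matplotlib 3.10.9 were used, and the overlap code was tested on simulated data. With 1 library per group no p-value could be given. All 8 genes are named, with every BrdU region and, for H3K18ac, the region of highest score, the longest and the one nearest the start in each line. The genes and lists were chosen with earlier results of these data known. A planned count at other acetylation genes and marker genes was not run, since no hg19 annotation was used here.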

Additional observations from a re-analysis of the deposited data

How the results depend on the processing

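No paired analysis was possible because each group had 1 library. By construction, the number of regions changed with the window. In the genes alone, there were 9 H3K18ac regions in H1, 5 in IMR90 and 0 in H1 control, IMR90 and Saos-2 BrdU. The 9 included the EP300 region that only touched the gene limit. With 50 kb on each side, there were 58 in H1, 49 in IMR90 and 1 in H1 knockdown. In the upper 50% of each list by score, there were 23 H3K18ac regions in H1, 9 in IMR90, 2 BrdU regions in IMR90 and 1 in Saos-2. With BrdU lists of equal number, there were 2 in H1 control, 2 in IMR90 and 1 in Saos-2. The share of H1 regions in IMR90 was 20% when 50% of the region had to overlap, and that of IMR90 regions in H1 was 88.9% (8 of 9) in the upper 50% by score, 38.8% (19 of 49) with 50 kb on each side, 40% (2 of 5) in the genes alone and 50% (11 of 22) when 50% had to overlap. The H1 over IMR90 ratio of covered length was 1.22 with 50 kb on each side. It was 1.58 in the genes alone, and would be lower there without the EP300 region that only touched the gene limit. It stayed between 1.58 and 2.74 in the upper 50%, with lists of equal number, without the SIRT7 window, without the EP300 window and at gene starts. The last 3 were chosen after seeing the data, as were the densities without SIRT7 and without KAT2B and the tiles of 4, 50 and 150 kb. BrdU regions with H3K18ac of their line numbered 3 in H1 control and 4 in IMR90 within 10 kb. The cause of these changes was not tested.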

Other observations

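Beyond the windows, between 20 and 50 kb from the genes, H3K18ac had the opposite order of covered length, 5.6 kb in H1 (23 regions) and 8.9 kb in IMR90 (27 regions), a ratio of 0.629. HDAC2 contributed most of this, with 0.2 kb in H1 and 2.8 kb in IMR90, followed by KAT2A with 0.3 and 1.2 kb and SIRT6 with 0.5 and 1.1 kb. SIRT7 kept more in H1, with 3 kb against 2.3 kb in IMR90. EP300 and CREBBP had 0.4 and 0.3 kb in H1 and no region in IMR90 there. KAT2B had 1 region of 300 bp in H1 and 2 regions over 900 bp in IMR90.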
